A study of Macaca mulatta with 8 samples.

Results

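Glucocorticoid activation and the response to it were followed through 4 genes, HSD11B1, FKBP5, ZBTB16 and CYP11B1, in granulosa cells of the rhesus macaque before and after an ovulatory stimulus. Every probe set whose platform annotation gave exactly 1 of these symbols was taken, which gave 5 of the 52766 probe sets on the array and 4 of the 14132 measured genes. HSD11B1, FKBP5 and ZBTB16 have 1 probe set each and CYP11B1 has 2; the probe set with the highest mean signal stands for a gene. The 4 arrays of PM-GC hold mural granulosa cells from follicles stimulated with FSH alone (before hCG). The 4 arrays of VVM-GC hold such cells from follicles that also received hCG, the ovulatory stimulus, and matured in vivo (after hCG). FSH stimulation is common to both groups. The source labels place the cells in cumulus-oocyte complexes, whereas the series design calls them mural, which is followed here. The sources used here do not state the interval between hCG and collection, the animals behind the replicates or their ages. The p-values therefore measure only the spread between these samples, which may be technical.

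Cortisol and its relatives act in a cell according to how much active hormone is made or regenerated there. The enzyme encoded by HSD11B1 sits in the endoplasmic reticulum and turns inactive cortisone into cortisol, using NADPH that H6PD supplies; HSD11B2 works in the opposite direction. Cortisol binds the receptor NR3C1, which is held ready by the chaperone HSP90 and its co-chaperones, and the loaded receptor switches on genes such as FKBP5 and ZBTB16. Progestins can induce several of the same genes through the progesterone receptor, which binds a similar DNA element. Follicular fluid is known to become richer in cortisol around ovulation.

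Medians of log2 intensity ran from 5.44 to 5.54, and correlations across probe sets were 0.984 to 0.988 before hCG and 0.974 to 0.984 after it. Of 14 granulosa markers, 10 were measured; INHA, a subunit of inhibin, stood at the 99.97th percentile of all probe sets before hCG and the 99.87th after it. Granulosa markers changed too, with 9 lower and 1 higher after hCG. This was 100% of the measured markers, beside 23.8% of all genes, with a median difference of -1.37. The 3 brightest, INHA, INHBA and NR5A2, differed by -0.57, -1.65 and -1.51. FSHR, FOXL2, LHCGR and CDH2 could not be matched to a probe set. In bulk RNA, fewer cells of a type and less RNA per cell cannot be told apart.

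HSD11B1, the cortisol-regenerating enzyme, read 6.33, 6.66, 6.92 and 6.81 in arrays 1 to 4 before hCG and 13.23, 12.87, 11.50 and 13.00 in arrays 1 to 4 after it (log2 intensity). All 4 arrays after hCG were far above all 4 before, and array 3 after hCG was the lowest of its group. On the linear scale the signal went from 80.3 to 121 units before hCG to 2895 to 9617 units after it. The mean went from 6.68 ± 0.26 to 12.65 ± 0.78 (SD, n = 4), a log2 difference of 5.97 (SE 0.34) that was the 6th largest rise among 14132 genes (limma, adjusted p = 4.54e-06). Without array 3 after hCG the rise was 6.35. The gap between the highest array before hCG and the lowest after it was 4.58 on the log2 scale. HSD11B1 stood at the 69.6th percentile of all probe sets before hCG and at the 99.5th after it, so it moved from a moderate signal to one of the brightest on the array.

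FKBP5, a co-chaperone that lowers the hormone affinity of the glucocorticoid receptor, read 5.68, 5.62, 5.99 and 5.39 before hCG and 9.32, 8.56, 8.11 and 9.72 after it. The groups did not overlap, and array 3 after hCG was again the lowest of its group. Its mean rose from 5.67 ± 0.25 to 8.93 ± 0.73 (SD, n = 4), by 3.26 on the log2 scale (SE 0.32, limma adjusted p = 0.000102) or 9.55-fold. FKBP5 lay near the middle of all probe sets before hCG, at the 53.1st percentile, and at the 89.2nd after it.

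ZBTB16, a zinc finger repressor of transcription also called PLZF, read 8.45, 8.21, 8.14 and 7.74 before hCG and 10.76, 10.94, 11.21 and 11.33 after it. Here array 3 after hCG was not low, and the arrays within each group lay close together. The mean rose from 8.13 ± 0.30 to 11.06 ± 0.26 (SD, n = 4), by 2.92 (SE 0.18, limma adjusted p = 6.47e-06) or 7.59-fold. The spread of ZBTB16 was similar in both groups, with SDs in a ratio of 0.868 (after over before), whereas the SDs of HSD11B1 and FKBP5 were 3.05 and 2.95 times as large after hCG as before it.

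CYP11B1, the mitochondrial enzyme that makes cortisol in the adrenal cortex, moved the other way. Its brighter probe set read 7.70, 11.65, 6.04 and 7.86 before hCG and 4.46, 4.73, 4.59 and 4.73 after it. The arrays before hCG were scattered over 5.60 log2 units, with array 2 far above the others, while those after hCG lay within 0.27 of each other. The mean fell from 8.31 ± 2.37 to 4.63 ± 0.13 (SD, n = 4). It fell by 3.69 on the log2 scale (SE 0.95, limma adjusted p = 0.0191). This was 12.9-fold, and 5.97-fold without array 2 before hCG (adjusted p = 0.00241) and 21.8-fold without array 3 before hCG (adjusted p = 0.00768). The SD before hCG exceeded that of 99.99% of genes. After hCG the probe set stood at the 33.8th percentile of all probe sets, and with 32 added to each intensity the difference did not pass (adjusted p = 0.0793).

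**Figure D1:**
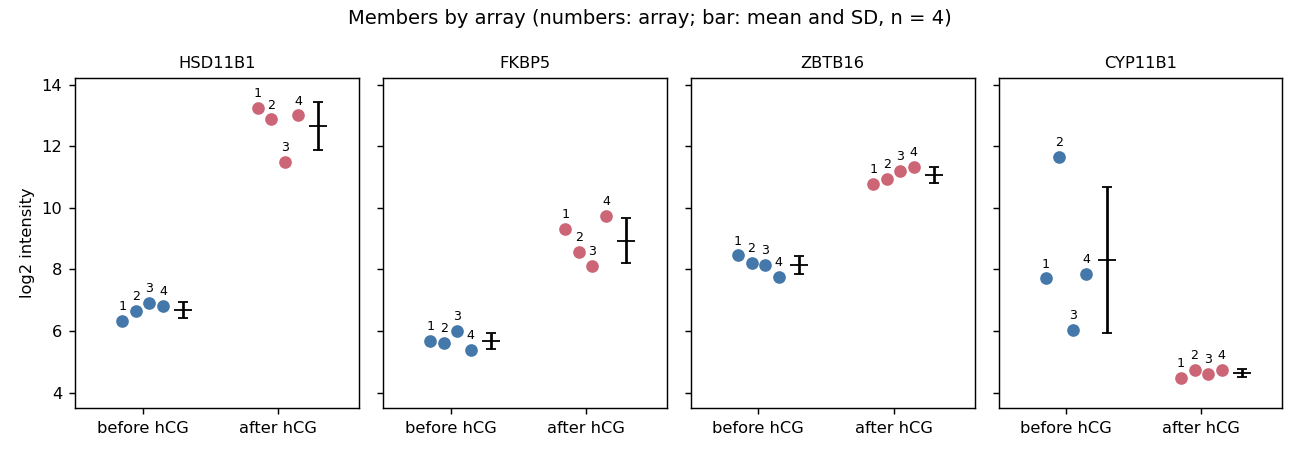
Log2 intensity of the 4 genes in each array (dots, numbered by array) before and after hCG, with the group mean and SD (n = 4) as a bar beside them. HSD11B1, FKBP5 and ZBTB16 lie higher in all 4 arrays after hCG, CYP11B1 lies lower, and array 2 before hCG reads 11.65 for CYP11B1.

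All 4 genes passed the threshold of 0.05 on the adjusted p and did not overlap between the groups. Over all 14132 genes, 23.8% passed (11.3% higher and 12.5% lower) and 27.2% did not overlap. The 4 genes were chosen with earlier results of these arrays known, so their count is a description only.

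The dimmer CYP11B1 probe set gave a smaller difference. It read 5.54, 7.26, 5.21 and 5.28 before hCG and 4.88, 5.40, 5.14 and 5.22 after it, so its groups overlapped, and array 2 before hCG was again the highest. Its difference of -0.66 (SE 0.40) did not pass in the fit over all probe sets (limma adjusted p = 0.327), of which 14.1% passed. Within arrays, the brighter probe set exceeded the dimmer one by 2.49 ± 1.47 before hCG and by -0.53 ± 0.11 after it (SD, n = 4). This change of -3.02 between the probe sets gave p = 0.0286 in an exact two-sided permutation test, the smallest that 4 against 4 arrays allow; it was the single pair of probe sets compared. After hCG both probe sets were dim, at the 33.8th and 43.9th percentiles of all probe sets. CYP11B2, the neighbouring aldosterone synthase and close relative of CYP11B1, could share probes with it. The brighter CYP11B2 probe set read 7.23, 7.19, 7.49 and 7.49 before hCG and 6.78, 7.14, 7.52 and 7.28 after it (difference -0.17, 95% interval -0.54 to 0.20, adjusted p = 0.501). The dimmer one read 5.10, 4.98, 4.73 and 5.18 before hCG and 4.41, 4.64, 4.46 and 4.55 after it. Its groups did not overlap, and it fell by 0.48 (SE 0.12, adjusted p = 0.0269 over all probe sets). Array 2 before hCG was not the highest of its group in either.

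**Figure D2:**
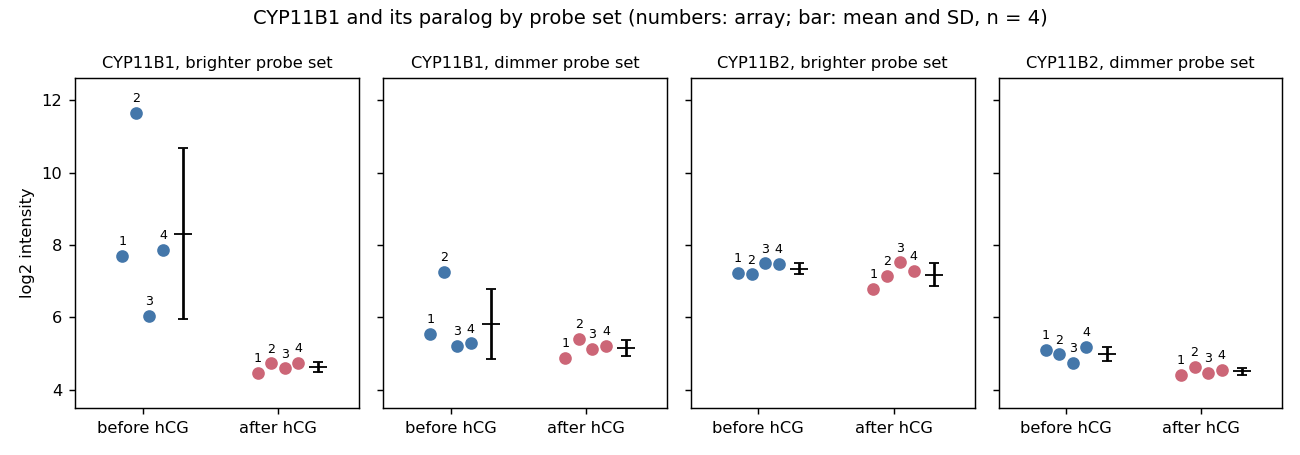
Log2 intensity of the CYP11B1 and CYP11B2 probe sets in each array (dots, numbered by array) before and after hCG, with mean and SD (n = 4). Array 2 before hCG is the highest of its group for both CYP11B1 probe sets (11.65 and 7.26) and for neither CYP11B2 probe set.

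Because CYP11B1 is an adrenal enzyme, markers of adrenal cortex were read beside it. Of 7 such markers, 2 fell after hCG (MRAP and CYP17A1), none rose (at an unadjusted p under 0.05 also 0) and 5 did not pass. The share called, 28.6%, was near the 23.8% of all genes. The fall of CYP17A1 did not pass as the mean of its 2 probe sets (limma adjusted p = 0.289), nor with some single arrays left out. The mean log2 level of the 7 markers was 7.09 to 7.45 in the arrays before hCG and 6.77 to 6.996 after it. MRAP, which escorts the ACTH receptor to the cell surface, fell by 1.93 (SE 0.38) in 1 of its 2 probe sets, with a mean over both of -1.15. In array 2 before hCG, where CYP11B1 was highest, 3 of the 7 markers had the highest value of their group (CYP21A2, CYP17A1 and MC2R), 3 the lowest (MRAP, DLK1 and CYP11B2) and 1 neither. DLK1, a Notch-related protein of steroid-making cells, was bright in both groups (13.69 ± 0.35 and 13.73 ± 0.26). MC2R, the ACTH receptor, lay at the 42.8th percentile of all probe sets before hCG and the 41.2nd after it. The values carry no detection calls, and none of these markers is listed at 0.

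Around HSD11B1, the other genes that activate or inactivate glucocorticoids showed no comparable rise. Of 13 listed genes, 9 were measured: 1 rose (HSD11B1), 1 fell and 7 did not pass, with a median difference of -0.27 beside -0.09 over all genes. The shares were near the background, with 22.2% called beside 23.8% of all genes and 11.1% higher beside 11.3%. Other settings moved these counts to between 1 and 3 higher (3 without array 4 after hCG) and to 2 lower (without array 3 before hCG, or array 1 or 3 after hCG). H6PD, which supplies the NADPH, read 5.09, 5.05, 4.73 and 5.27 before hCG and 4.48, 4.75, 4.75 and 4.58 after it, a difference of -0.40 (95% interval -0.70 to -0.09, adjusted p = 0.0643, or 0.025 without array 3 before hCG). SLC37A4, which carries glucose-6-phosphate to H6PD, differed by -0.48 (adjusted p = 0.179, or -0.71 with adjusted p = 0.0161 without array 3 after hCG). HSD11B1L, a sequence relative of HSD11B1, differed by 0.02 (95% interval -0.22 to 0.25, adjusted p = 0.933). CYP3A4, a hydroxylase that clears cortisol in the liver, fell by 1.61 (SE 0.36, adjusted p = 0.00995). Of its 4 probe sets 2 were lower, with a mean over all of them of -0.81, and its relatives may share probes. CYP3A5, a relative on the same list, went the other way. Its difference of 1.002 (95% interval 0.25 to 1.76) did not pass (adjusted p = 0.0591). At an unadjusted p under 0.05, 3 of the 9 genes were higher, HSD11B1 among them, and 2 lower. HSD11B2, SRD5A1, SRD5A2 and AKR1C4 could not be matched, so the balance between HSD11B1 and HSD11B2 was not measured here.

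On the receptor side, changes went in both directions. Of 17 measured genes for the receptor, its chaperones and its coregulators, 3 rose, 3 fell and 11 did not pass (median -0.03), so that 35.3% passed beside 23.8% of all genes. NR3C1, the glucocorticoid receptor, read 7.02, 7.45, 7.76 and 7.07 before hCG and 7.82, 7.84, 7.44 and 7.80 after it. Its difference of 0.40 (95% interval -0.004 to 0.81) did not pass (adjusted p = 0.145, or 0.0449 without array 3 before hCG), and the mean of its 3 probe sets differed by 0.03. HSP90AB1, the chaperone that holds the receptor, differed by -0.14 (adjusted p = 0.422).

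FKBP4, the co-chaperone that competes with FKBP5 for HSP90 and favours the receptor's move to the nucleus, fell where FKBP5 rose. It read 9.14, 9.44, 9.73 and 9.53 before hCG and 7.86, 8.34, 8.75 and 7.74 after it, with no overlap. The fall of 1.29 (SE 0.23, adjusted p = 0.00277) was carried by 2 of its 3 probe sets, and their mean over all 3 was -0.66. DNAJB1, a co-chaperone of HSP70, fell by 1.04 (SE 0.23, adjusted p = 0.00967). NCOA3, a coactivator, rose by 0.87 (SE 0.21, adjusted p = 0.0128), with 2 of its 6 probe sets higher and a mean over all of 0.42. EP300, another coactivator, differed by a similar 0.86 (adjusted p = 0.0695, or 0.0256 without array 1 before hCG).

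NCOR1, a corepressor, fell by 1.02 (adjusted p = 0.0196; mean of its 5 probe sets -0.56), but not without array 2 or 3 before hCG or array 2 after hCG (adjusted p = 0.0519 to 0.0544). HSPA8, a constitutive chaperone of the HSP70 family, rose by 0.50 (adjusted p = 0.0182), but lost this call without array 1 (0.0514) or array 2 (0.0508) of the group before hCG, and its 3 probe sets disagreed, with 2 higher and 1 lower. NR3C2, the mineralocorticoid receptor, which also binds cortisol, could not be matched.

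Within the FK506-binding protein family, FKBP5 had the largest difference of 14 measured members. Of the family, 6 rose, 3 fell and 5 did not pass (median 0.32), which is 64.3% called beside 23.8% of all genes and 42.9% higher beside 11.3%. FKBP11, FKBP14 and FKBP2, of the secretory pathway, rose by 1.63, 0.94 and 0.63; FKBP11 rose in 1 of its 2 probe sets, with a mean of 0.99. Besides FKBP4, FKBP7 of the endoplasmic reticulum fell by 1.11. FKBPL, a further HSP90 partner, fell by 0.80.

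Of the genes known to be induced by glucocorticoids, nearly as many rose as did not pass. Of 41 listed, 33 were measured: 16 rose (48.5%, beside 11.3% of all genes), none fell and 17 did not pass, with a median difference of 0.74 beside -0.09 over all genes. At an unadjusted p under 0.05, 19 were higher and 0 lower. Without array 3 after hCG, 19 of the 33 passed. Leaving out FKBP5 and ZBTB16, 14 of 31 rose, 13 of them by at least 1 on the log2 scale, against 6.13% of all genes. Several listed genes also answer to cyclic AMP, progestins or inflammation, and the list was drawn up with earlier results of these arrays known.

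CRISPLD2, a secreted protein that is a frequent marker of glucocorticoid response, read 8.74, 8.92, 8.18 and 8.64 before hCG and 13.11, 13.11, 12.17 and 13.32 after it. Its rise of 4.31 (SE 0.26, adjusted p = 5.63e-06) was the largest of the list, and both probe sets rose, with a mean of 2.65. RGS2, which dampens G protein signals, rose by 3.70 (SE 0.29), or 2.41 as the mean of its 2 probe sets. ZFP36, which hastens decay of inflammatory mRNAs, read 4.83, 5.37, 5.23 and 5.04 before hCG and 8.72, 8.07, 6.36 and 9.48 after it. It rose by 3.04 (SE 0.54), or 3.64 without array 3 after hCG, the lowest of its group.

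The further risers, named here after their values were seen, cover several functions. The transcription factors CEBPB and CEBPD rose by 2.34 and 2.23, and BCL6, a repressor, by 1.82. ANXA1, an anti-inflammatory protein, rose by 2.54 with 1 of its 3 probe sets higher (mean 1.38), and DDIT4, an inhibitor of mTOR, by 2.04. Metabolic genes were ANGPTL4, a lipase inhibitor (2.01), IRS2, an adaptor of the insulin receptor (1.99), and GLUL, glutamine synthetase (1.44, with 2 of 5 probe sets higher and a mean of 0.37). The metallothionein MT2A rose by 1.63. MT1X (0.41) and the amine oxidase MAOA (1.03) passed less firmly. MT1X did not pass without array 1 or 2 before hCG or array 1 after hCG (adjusted p = 0.0504 to 0.0537). MAOA did not pass without array 2, 3 or 4 before hCG or array 1 or 2 after hCG (adjusted p = 0.0909 to 0.101).

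**Figure D3:**
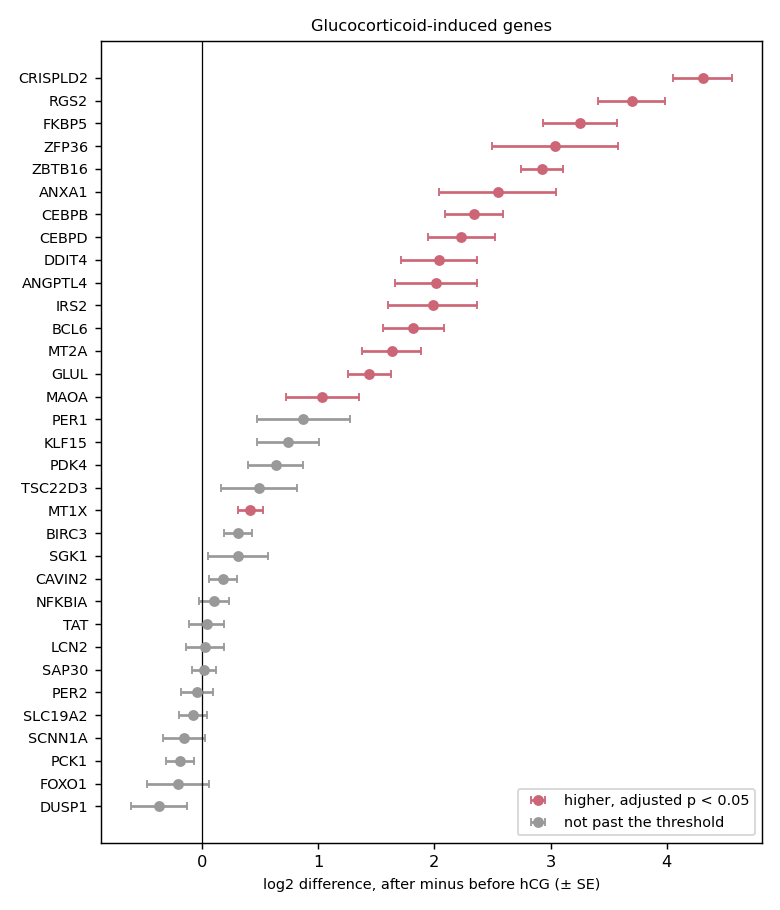
Log2 difference, after minus before hCG, with its SE, for the 33 measured glucocorticoid-induced genes; red marks adjusted p under 0.05 and grey the rest. CRISPLD2 (4.31), RGS2 (3.70), FKBP5 (3.26) and ZFP36 (3.04) lead, and DUSP1 (-0.37) is lowest.

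Some of the most widely used glucocorticoid targets did not pass. TSC22D3, the leucine zipper protein GILZ, read 10.49, 10.97, 11.20 and 10.998 before hCG and 12.25, 11.30, 10.48 and 11.59 after it. Its difference of 0.49 (95% interval -0.24 to 1.23) did not pass (adjusted p = 0.319), and array 3 after hCG was lower than every other array; without it the difference was 0.80 (adjusted p = 0.0442), and without array 1 after hCG, the highest, it was 0.21 (adjusted p = 0.652). SGK1, a kinase that acts on ion transport, differed by 0.31 (adjusted p = 0.430), by 0.59 without array 3 after hCG (adjusted p = 0.0148) and by 0.13 without array 1 after hCG (adjusted p = 0.764). PER1, a clock gene, differed by 0.87 (95% interval -0.02 to 1.77, adjusted p = 0.151), and by 0.57 without array 3 before hCG (adjusted p = 0.318). DUSP1, a phosphatase of MAP kinases, was bright before hCG (13.08 ± 0.15) and differed by -0.37 (adjusted p = 0.313), with 11.89 in array 3 after hCG and 12.94 to 13.06 in the other arrays of that group.

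Array 3 after hCG was thus low for several of these genes, though not for all. Of the 16 list members that rose, 9 had their lowest value after hCG in array 3 and 6 in array 4, whereas over all 1595 genes that rose array 3 was lowest for 32.2% and array 4 for 22.0%. Leukocyte markers were also low in array 3. Their mean level over 8 measured markers was 5.58 in that array, the lowest, and reached 7.12 in another array after hCG, beside 6.65 to 7.06 before hCG. PTPRC, carried by leukocytes in general, read 3.89 in array 3 and 5.78 to 7.39 in the other arrays after hCG, and the macrophage protein LYZ read 4.18 against 7.55 to 8.12. Of the 8 markers, CSF1R fell by 2.09 and 7 did not pass, among them TYROBP (-0.09) and CD14 (0.22); at an unadjusted p under 0.05, 1 was higher and 2 lower, and none is listed at 0. CD68, of macrophages, had a difference of 0.84 (adjusted p = 0.0502), which passed once array 3 after hCG was left out (1.10, adjusted p = 0.00473), while its 2 probe sets went in opposite directions, with a mean of 0.11. For ACTB, the excess of the 3' over the 5' probe set, a measure of RNA integrity, was also highest in array 3, at 5.18, against 4.47 to 4.83 in the other 7 arrays. The part of these features in the low values was not tested; without array 3, HSD11B1, FKBP5 and ZBTB16 rose by 6.35, 3.53 and 2.87.

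**Figure D4:**
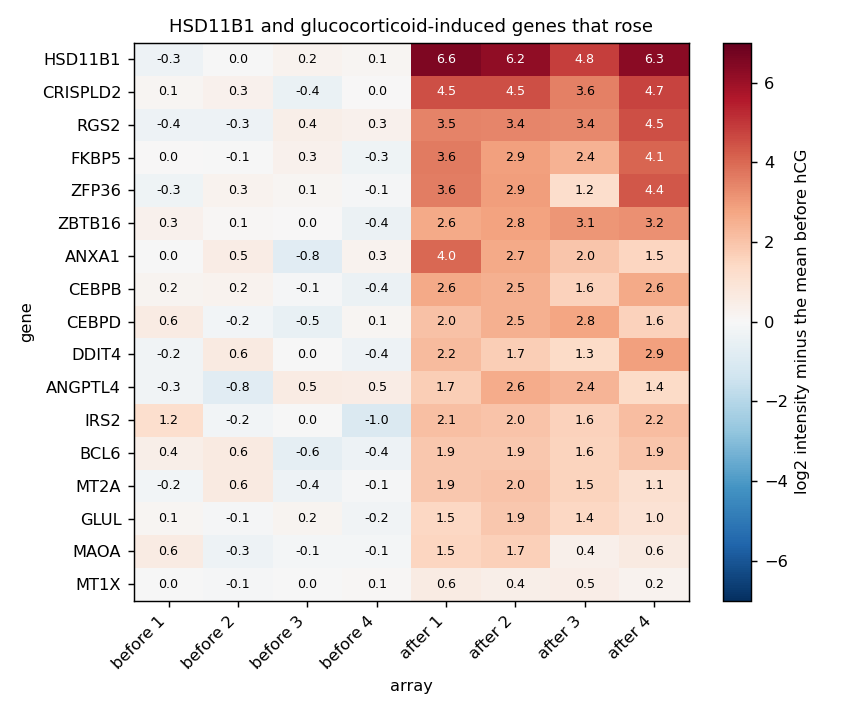
Log2 intensity minus the gene's mean before hCG, by array, for HSD11B1 and the 16 glucocorticoid-induced genes that rose, ordered by their difference. Arrays after hCG are positive throughout; array 3 is the lowest of them for HSD11B1 and FKBP5 but not for ZBTB16.

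Among genes of cortisol synthesis, more fell than rose. Of 14 measured, 2 rose, 7 fell (CYP11B1 among them) and 5 did not pass, with a median of -0.32. Of the list 64.3% passed, beside 23.8% of all genes. The share higher, 14.3%, was near the 11.3% of all genes, whereas 7 of 14 were lower beside 12.5% of all genes. STAR, which brings cholesterol into mitochondria, read 8.14, 9.62, 9.12 and 8.79 before hCG and 13.05, 13.11, 11.99 and 11.90 after it, and rose by 3.60 (SE 0.37, adjusted p = 0.000126). CYB5A, which helps pass electrons to CYP17A1, rose by 1.91 (SE 0.19). POR, the electron donor of the cytochromes in the endoplasmic reticulum, fell by 1.94 (SE 0.18), and all 4 of its probe sets fell, with a mean of -1.27. FDXR, which starts the electron supply of CYP11B1 and the other mitochondrial cytochromes, fell by 1.41 (SE 0.17), in both probe sets. FDX1, the carrier between FDXR and those cytochromes, differed by 0.05 (adjusted p = 0.859).

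Of the remaining steps from progesterone to cortisol, CYP17A1 was dim, at the 40.3rd percentile of all probe sets before hCG and the 32.4th after it. CYP21A2 was moderate, at the 61.7th and 59.8th. CYP17A1 differed little in size, at 5.02 ± 0.13 before and 4.55 ± 0.21 after hCG. Its fall of 0.47 (adjusted p = 0.0303) did not pass without array 2, 3 or 4 before hCG or array 1, 3 or 4 after hCG (adjusted p = 0.0558 to 0.0771), nor as the mean of its 2 probe sets (adjusted p = 0.289). CYP21A2 was at 6.15 ± 0.13 and 6.02 ± 0.22 (adjusted p = 0.515). HSD3B2, an earlier step that also makes progesterone, differed by -0.15 (adjusted p = 0.865), or by -0.57 without array 1 before hCG (adjusted p = 0.402). The regulators NR5A1 and NR0B1, nuclear receptors of steroid-making cells, fell by 0.76 and fell by 0.83. CYP11A1 and HSD3B1 could not be matched.

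**Figure D5:**
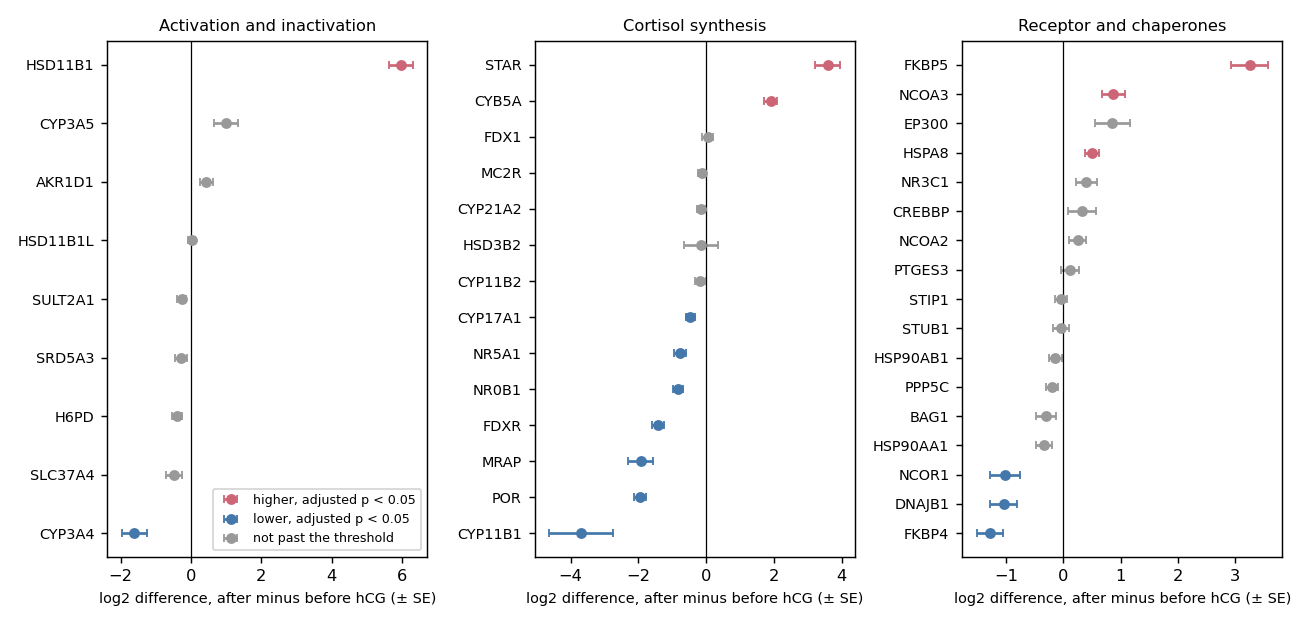
Log2 difference, after minus before hCG, with its SE, for genes of glucocorticoid activation and inactivation (9), cortisol synthesis (14) and the receptor with its chaperones (17); red and blue mark genes higher or lower at adjusted p under 0.05. HSD11B1 (5.97), STAR (3.60) and FKBP5 (3.26) are highest in their panels and CYP3A4, CYP11B1 and FKBP4 lowest.

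Among the other steroid receptors, 6 genes were measured with NR3C1, of which 1 rose, 2 fell and 3 did not pass. This was 50% called, beside 23.8% of all genes. PGR, the progesterone receptor, read 5.33, 5.20, 5.37 and 4.87 before hCG and 5.79, 6.34, 6.72 and 6.42 after it, a rise of 1.13 (SE 0.20, adjusted p = 0.003). PGRMC1, a membrane protein linked to progesterone signals, fell by 1.27 (SE 0.12), and all 4 of its probe sets fell, with a mean of -2.43. ESR1, an oestrogen receptor, fell by 0.82 (adjusted p = 0.0362), but not without array 1, 2 or 4 before hCG or array 1, 2 or 4 after hCG (adjusted p = 0.0707 to 0.101).

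For each of the 4 genes, the 3 others with the most similar profile were found by the root mean square difference between profiles centred on their mean over the 8 arrays. For HSD11B1 these were KCNG3, a potassium channel subunit, SHC4, a signalling adaptor, and APCDD1, a WNT inhibitor, with differences of 0.376, 0.415 and 0.461 log2 units. FKBP5 was closest to USP53 (0.131), the hypoxia factor EPAS1 (0.272) and the urokinase receptor PLAUR (0.283). Profiles were compared by the brightest probe set. KCNG3 and EPAS1 were each higher in 1 of 2 probe sets, and PLAUR in 2 of 3. USP53 read 8.40, 7.73, 7.15 and 8.88 after hCG, in the same order of arrays as FKBP5. As the nearest of all profiles over these same arrays, it was likely to share that order by the choice itself. ZBTB16 was closest to WIPF3 (0.159), which binds the actin regulator WASP, to CRH (0.211) and to PDLIM1 (0.231).

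CRH encodes corticotropin-releasing hormone, which in the hypothalamus starts the cascade that ends in adrenal cortisol. It read 9.37, 8.98, 8.89 and 8.24 before hCG and 11.64, 11.43, 11.57 and 12.30 after it, a rise of 2.87 (SE 0.26, adjusted p = 6.67e-05). CRH was picked for its likeness to ZBTB16, so a rise of similar size follows from the choice and its p is a description only. No gene came close to CYP11B1: the nearest were GPR137C, MKI67 and EFNB1, at 1.18, 1.34 and 1.39 log2 units. GPR137C, a membrane protein, read 6.84, 9.09, 7.90 and 7.90 before hCG, with array 2 the highest, and 4.57 to 4.97 after it. Since GPR137C was picked for its likeness to CYP11B1, the choice itself favours a gene high in array 2.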

How the data were processed

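RNA of 8 granulosa cell samples was hybridised to Affymetrix rhesus macaque arrays, 1 per sample. The deposited table holds intensity values that the authors made with Affymetrix Expression Console and RMA, per the submitters' processing notes, with no version stated in the sources used here. The values are on a linear scale (array medians 43.5 to 46.5), so log2 was taken. The table has 52865 rows, of which 99 array controls were left out; 24956 probe sets have 1 gene symbol, 361 several and 27449 none, and for 24616 of the first the symbol was taken from RefSeq through the gene ID. No detection calls are given; precision is limited by the 8 arrays.

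Groups were compared over all 14132 genes with limma 3.58.1 (lmFit, eBayes) in R 4.3.3, two-sided, with Benjamini-Hochberg adjustment. Every adjusted p is from limma with this adjustment. It is from the fit over all genes unless a fit over all probe sets or another setting is named. The procedure was tested on simulated data. Median differences and counts describe 6 pathway and 9 marker lists; no list was tested. The members and lists were chosen with earlier results of these data known. The genes named are the members, 15 index genes (12 measured) and up to 4 genes per list and direction past the threshold. To these come the 3 brightest markers per list and the 3 nearest profiles. Not all of these markers are described singly. For theca, erythrocytes and surface epithelium, only those that passed are. Those of endothelium, oocyte and stroma, of which none passed, are left out. CYP3A5 apart, 28 of the 87 genes named lie outside this rule and were chosen after their values were seen. CYP3A5 was also chosen after its values were seen. Replicate numbers do not pair the samples by the check made.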

Additional observations from a re-analysis of the deposited data

Results flagged for a closer look

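In 176 groups of 4 arrays, 11 had 1 array far from the other 3 for the size of the group's range. Chance gives about 1 in 20. The groups cover the dimmer CYP11B1 probe set and the genes named, CYP3A5 apart. Array 3 after hCG was the low one for 6 genes: NR3C1 at 7.44 against 7.80 to 7.84, DUSP1 at 11.89 against 12.94 to 13.06, CEBPB at 11.48 against 12.36 to 12.52, BCL6 at 11.73 against 12.03 to 12.09, FKBP2 at 11.24 against 11.41 to 11.45, and LYZ at 4.18 against 7.55 to 8.12. In array 2 before hCG the dimmer CYP11B1 probe set read 7.26 against 5.21 to 5.54 in the others. Array 4 after hCG read 13.87 for RGS2 against 12.70 to 12.81. Array 4 before hCG read 7.09 for NCOA3 against 7.81 to 7.94. Array 1 before hCG read 8.81 for HSD3B2 against 10.46 to 10.67. Array 2 after hCG read 13.77 for INHA against 13.37 to 13.43.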

How the results depend on the processing

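HSD11B1, FKBP5 and ZBTB16 passed in the same direction under all 16 alternatives (adjusted p up to 0.000322, 0.00191 and 0.000601). CYP11B1 passed under 15 and fell by 2.73 with 32 added to each intensity (adjusted p = 0.0793); its smallest fall, 2.17, was the mean of its probe sets, and leaving out 1 array gave -4.44 to -2.58. The probe set difference of CYP11B1 kept its direction throughout. The count of called genes, 3359, was 3031 to 3539, and 2699 to 3348 with 1 array left out. Induced genes higher were 14 to 19 of the list, with none lower. Activation genes higher were 2 with repeated quantile normalization, median centring or averaged probe sets, and 1 to 3 with 1 array left out; those lower were 2 with eBayes trend and robust, and 1 to 2 with 1 array left out. Steroid receptors lower were 1 with 32 added, a filter on low signals or the replicate block, and 1 to 2 with 1 array left out; those higher were 1 to 2. For other named genes except CYP3A5, 1254 of 1322 alternative values kept their call or lack of one, 54 lost a call and 14 gained one. None reversed direction with a call in either setting. Genes without a call could change sign. With 1 array left out, PTPRC ran from -0.95 to 0.22 and LYZ from -0.35 to 0.96.

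Same-numbered arrays deviated together with a correlation over 0.1 in 1 of 4 pairs, and 1 of 4 arrays matched its own number best. With the replicate block 3063 genes passed, 2881 of them shared; CYP11B1 had adjusted p = 0.0225, PER1 (0.0322) and CD68 (0.0382) gained a call, and NCOR1 (0.0724), ESR1 (0.078) and MT1X (0.0575) lost theirs. The difference of changes between HSD11B1 and HSD11B2 was not run, since HSD11B2 could not be matched.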

Other observations

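The genes next to each of the 4 on its chromosome were read from the reference gene order (RefSeq, T2T-MMU8v2.0), 3 measured genes on each side, after the main results were known. Of these 24 neighbours 5 passed, or 20.8%, beside 23.8% of all genes, so their share was near the background. Beside HSD11B1 on chromosome 1, the next measured gene on one side, G0S2, an inhibitor of fat breakdown, read 11.25, 10.57, 11.13 and 11.09 before hCG and 11.48, 12.06, 12.42 and 12.20 after it, a rise of 1.03 (SE 0.22, limma adjusted p = 0.00754); the other 5 neighbours of HSD11B1 did not pass. Beside FKBP5 on chromosome 4, ARMC12, known from sperm, rose by 1.89 (SE 0.19, adjusted p = 0.000103) from a dim 4.79 ± 0.30, with 1.17 when 32 was added to each intensity, and the other 5 did not pass.

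Beside ZBTB16 on chromosome 14, NNMT, which methylates nicotinamide, rose by 1.28 and USP28, a deubiquitinase, by 0.58, while HTR3A, a serotonin receptor subunit, fell by 0.79 (mean of its 2 probe sets -0.37). As means of all their probe sets NNMT and USP28 did not pass (adjusted p = 0.0621 and 0.213). None of the 6 measured neighbours of CYP11B1 on chromosome 8 passed by its brightest probe set. CYP11B2 is directly beside CYP11B1 in this order. Its dimmer probe set fell by 0.48 and passed in the fit over all probe sets (limma adjusted p = 0.0269).

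Markers of 3 other cell types changed in shares above the 23.8% of all genes, but each list holds few markers. Of 5 theca markers 1 rose and 1 fell (40% called), of 5 erythrocyte markers 2 fell (40%), and of 6 surface epithelium markers 2 rose (33.3%). At an unadjusted p under 0.05, 1 theca marker was higher and 1 lower. Of the erythrocyte markers, 0 were higher and 2 lower. For surface epithelium 2 were higher and 1 lower, and the median difference of that list was -0.13. The markers read below are those that passed among the 3 brightest of each list. WT1, a transcription factor of surface epithelium and of early granulosa cells, read 3.99, 5.13, 4.17 and 3.95 before hCG and 9.34, 7.93, 7.68 and 8.05 after it, a rise of 3.94 (SE 0.38, limma adjusted p = 9.14e-05) in 1 of its 2 probe sets, with a mean of 2.04. HHIP, a hedgehog inhibitor on the theca list, rose by 2.82 (SE 0.45, adjusted p = 0.00155) in all 3 probe sets. KRT19, a keratin, rose by 1.32 (adjusted p = 0.0266), but not without array 1, 3 or 4 before hCG or array 1, 2 or 3 after hCG (adjusted p = 0.0571 to 0.071). HBA, a globin, fell by 1.47 (adjusted p = 0.0372), but not without array 2, 3 or 4 before hCG or array 1 or 3 after hCG (adjusted p = 0.0719 to 0.0956). ALAS2, of haem synthesis in red cells, fell by 0.78 (adjusted p = 0.0243), but not without array 3 before hCG or array 1 or 2 after hCG (adjusted p = 0.0535 to 0.0649). The part of these cell types in the results was not tested. None of 9 endothelial, 8 oocyte and 4 stromal markers passed; at an unadjusted p under 0.05, 1 endothelial marker was higher and 1 lower, no oocyte marker differed and 1 stromal marker was higher.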
